A study of Mus musculus with 8 samples.

Results

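Small Cajal body-specific RNAs (scaRNAs) are non-coding guide RNAs that direct chemical modification of the spliceosomal snRNAs. The scaRNAs described here are all rows of the deposited table whose name begins with Scarna, ignoring case, with no filter on level. There were 15 such rows among 964. The libraries came from GMLPs, a progenitor population sorted from mouse bone marrow. WT mice gave 4 libraries, and mice carrying iMLL-ENL, an inducible form of the leukaemia fusion of MLL with ENL, gave the other 4. Cells of both groups were kept for 3 days in culture with doxycycline before RNA was extracted, so the drug was common to both. The sources used here give neither mouse age and strain, nor the element that drives the transgene, nor whether each library was a separate mouse. P-values therefore measure the spread between these libraries, which may be technical.

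Cajal bodies are nuclear bodies in which newly made snRNA particles mature. A box C/D guide pairs with its target and directs methylation of a ribose, and a box H/ACA guide directs conversion of uridine to pseudouridine. Most scaRNAs are cut from introns of a host gene, some carry both kinds of domain, and a few have a promoter of their own. Several larger scaRNAs are also known to be processed into shorter pieces. Modified sites in U2 snRNA are known to matter for assembly of its particle and for splicing.

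Classes and targets of the rows come from background knowledge of the human RNAs of the same names. By this background knowledge 4 rows are box C/D guides (Scarna2, Scarna9, SCARNA7.1 and Scarna17), and 3 are mixed (Scarna6, SCARNA6.1 and Scarna10). The other 8 rows are box H/ACA guides. Names of 7 rows matched a transcript of GENCODE release M21, on the GRCm38 build that the submitters' processing notes name. The 8 rows written in capitals matched no transcript name there, so they are named only and their class rests on the name. Of the box C/D rows that rose, sequences are shown for Scarna2 (in part) and Scarna9, because SCARNA7.1 had no match. Sequences are also shown for the mixed row whose libraries lay lower in iMLL-ENL, and for a box H/ACA pair that contains mature miRNA arms. They are read from GENCODE, 5′ to 3′, in DNA letters.

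The box C/D and mixed guides carry 2 short motifs, searched on the RNA strand only: TGATGA, the core of box C, and CTGA, box D. Capitals mark every match in the first 3 sequences, and the motifs do not overlap there. They are the last 80 bases of Scarna2 (chr3:108554338-108554417, minus strand), Scarna9 (chr9:15326264-15326333, minus strand) and Scarna6 (chr1:87784556-87784820, plus strand).
Scarna2: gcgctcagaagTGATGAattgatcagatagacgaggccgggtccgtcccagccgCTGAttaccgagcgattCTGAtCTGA
Scarna9: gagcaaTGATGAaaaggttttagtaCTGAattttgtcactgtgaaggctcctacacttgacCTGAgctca
Scarna6: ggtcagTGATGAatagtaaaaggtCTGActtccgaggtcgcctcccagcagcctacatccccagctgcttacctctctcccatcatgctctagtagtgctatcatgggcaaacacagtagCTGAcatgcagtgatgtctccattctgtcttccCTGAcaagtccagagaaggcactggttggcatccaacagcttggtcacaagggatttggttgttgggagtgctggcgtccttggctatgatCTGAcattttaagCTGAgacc
TGATGA occurs 1 time in each, at base 12 of the Scarna2 stretch and at base 7 of Scarna9 and Scarna6. The last CTGA ends 0, 5 and 4 bases before the annotated end of Scarna2, Scarna9 and Scarna6. Among 32851 RefSeq promoter windows (GRCm38.p6) cut to the same length, 1.66% held TGATGA at 80 bases, 1.42% at 70 and 5.74% at 265. CTGA was in 32.98%, 29.47% and 72.52% of those windows.

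In the next pair capitals mark the mature arms of a miRNA instead. Scarna3a (chr1:159340283-159340422, plus strand) contains the arms of miR-1843b, and Scarna3b (chr12:80391613-80391751, minus strand) those of miR-1843a, by RefSeq's miRNA entries on GRCm38.p6.
Scarna3a: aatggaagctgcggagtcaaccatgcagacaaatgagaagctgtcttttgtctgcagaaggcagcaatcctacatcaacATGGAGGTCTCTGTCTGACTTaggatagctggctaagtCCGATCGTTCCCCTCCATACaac
Scarna3b: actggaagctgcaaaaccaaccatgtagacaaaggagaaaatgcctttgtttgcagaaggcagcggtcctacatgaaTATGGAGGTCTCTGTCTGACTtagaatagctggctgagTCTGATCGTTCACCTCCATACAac
Both end in the letters of box ACA, with the last ACA 2 bases before the annotated end. Both also hold TGAG, the letters of the CAB box that binds the Cajal body protein WRAP53, 1 time each, at base 34 of Scarna3a and base 112 of Scarna3b. Of the promoter windows cut to these lengths, 48.88% (140 bases) and 48.62% (139 bases) held TGAG. Scarna9 and Scarna6 hold TGAG 1 time each as well, in both overlapping the last CTGA, and the Scarna2 stretch holds 0.

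**Figure D1:**
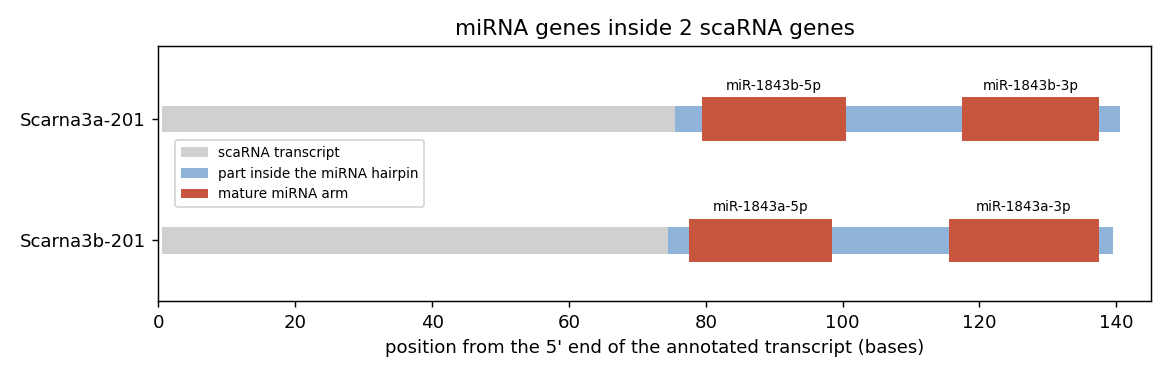
Annotated Scarna3a (140 bases) and Scarna3b (139 bases), with the part inside a RefSeq miRNA hairpin in blue and the mature arms in red; the x axis is the position in bases from the 5′ end. The arms lie at bases 80 to 100 and 118 to 137 of Scarna3a and at bases 78 to 98 and 116 to 137 of Scarna3b.

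The level of a row is given in RPM, reads per 1000000 of the library's scale. The deposited table is labelled as TPM, but the values of a library are whole multiples of 1 step whatever the length of the RNA. Between 99.79% and 100% of a library's values were whole within 0.0055 RPM, and 1 step, taken as 1 read, was worth 0.1078 to 0.1691 RPM. By that estimate 5910000 to 9270000 reads stood behind a library's scale, and the floor of 3 reads lay at 0.323 to 0.507 RPM, a floor that covers counting error only. These read numbers are estimates from the step size and not recovered counts, so no count test was run on them. The scaRNA rows together held 0.0573% to 0.0901% of the table's summed RPM in WT libraries and 0.0994% to 0.129% in iMLL-ENL libraries. All rows of the table summed to 30.0% to 38.45% of a library's scale in WT and 25.97% to 29.19% in iMLL-ENL. WT replicate 2 stood apart before any comparison. Correlated with the rest of WT on tested log2 levels, it reached a mean of 0.908, where the remaining WT libraries reached 0.955 to 0.968. Among iMLL-ENL libraries this mean was 0.990 to 0.994.

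The study compared small RNAs of progenitors with and without the fusion. Of the 15 scaRNA rows, 8 reached 10 RPM in at least 4 libraries and were tested, and 7 were not. On the deposited scale 3 of the 8 rose in iMLL-ENL cells and 0 fell: SCARNA7.1, Scarna2 and Scarna9. All 3 are assigned to box C/D, SCARNA7.1 by its name alone. The test was limma on log2(RPM + 1) over all 633 tested rows of the table, with Benjamini-Hochberg adjustment at 0.05. By the same rule 28.9% of all tested rows passed, 20.4% higher and 8.53% lower. At an unadjusted limma p under 0.05 the 3 higher rows were joined by 2 lower ones, Scarna6 and Scarna3a. At that threshold 195 of all 633 tested rows were higher and 83 lower. Without WT replicate 1 only SCARNA7.1 passed, 1 of 8, where 9.32% of all tested rows passed. Over all 15 rows, fitted without the filter, the median log2 fold change was -0.04, against 0.33 over all 964 rows.

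SCARNA7, known in human as U90, is a box C/D guide for U1 snRNA. Its row had the most RPM of the 15 over all 8 libraries, not corrected for length. SCARNA1.1 was above it in the WT mean, with WT replicate 2 at 112.48 RPM, but below it in WT replicates 1, 3 and 4. SCARNA7.1 was at 43.81, 48.19, 38.89 and 53.54 RPM in WT replicates 1 to 4. In iMLL-ENL replicates 1 to 4 it was at 77.47, 73.75, 78.48 and 99.95 RPM. Every iMLL-ENL library lay above every WT library. The means were 46.1 ± 6.2 and 82.4 ± 11.9 RPM (SD, n = 4), a ratio of 1.79. The limma log2 fold change was 0.82 ± 0.16 (SE, adjusted p = 0.0094). The row passed the test in all 21 alternatives run, with log2 fold changes from 0.43 to 1.14 and adjusted p up to 0.043.

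Scarna2 is the scaRNA also known as mgU2-25/61, a box C/D guide for U2 snRNA that is transcribed from a gene of its own. GENCODE places it at chr3:108554338-108554751 on the minus strand, 414 bases long, with no gene overlapping it on that strand. RefSeq's entry of the same name covers only bases 350 to 410, within the stretch printed above. Scarna2 was at 22.40, 25.59, 13.70 and 38.40 RPM in WT and at 47.79, 62.65, 51.63 and 74.40 RPM in iMLL-ENL. The groups did not overlap, although WT spread widely, from WT replicate 3 at the bottom to WT replicate 4 at the top. The means were 25.0 ± 10.2 and 59.1 ± 11.98 RPM (SD, n = 4), the largest ratio among the 15 rows at 2.36. The log2 fold change was 1.27 ± 0.29 (SE, adjusted p = 0.016). It passed the test under all 6 other scalings, at 0.89 to 1.58, and lost the call only without WT replicate 1 (1.25, adjusted p = 0.054).

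Scarna9, also known as mgU2-19/30, is a second box C/D guide for U2. The mouse row is annotated as 70 bases in an intron of Cep295, which encodes a centriole protein, so it covers a single box C/D domain. Scarna9 was at 19.32, 17.01, 19.45 and 24.25 RPM in WT and at 31.12, 28.36, 33.89 and 36.82 RPM in iMLL-ENL. Again the lowest iMLL-ENL library lay above the highest WT library. The means were 20.01 ± 3.04 and 32.5 ± 3.6 RPM (SD, n = 4), with a log2 fold change of 0.68 ± 0.16 (SE, adjusted p = 0.017). This call ended after TMM scaling (0.41, adjusted p = 0.060, or 0.29, 0.22 with factors from all rows), after quantile normalization (0.50, 0.16), without WT replicate 1 (0.67, 0.057) and without iMLL-ENL replicate 3 (0.66, 0.057).

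The fourth box C/D row, Scarna17, a guide for U4 and U12 also known as U91, was low. Scarna17 was at 3.36, 4.03, 3.04 and 3.50 RPM in WT and at 3.15, 1.94, 2.50 and 3.13 RPM in iMLL-ENL. The groups overlapped, and these values rest on an estimated 18 to 31 reads per library. Its ratio was 0.77, so the box C/D rows did not all lie higher in iMLL-ENL. It was below the filter, and the fit without a filter gave -0.29 ± 0.18 (SE, adjusted p = 0.25).

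**Figure D2:**
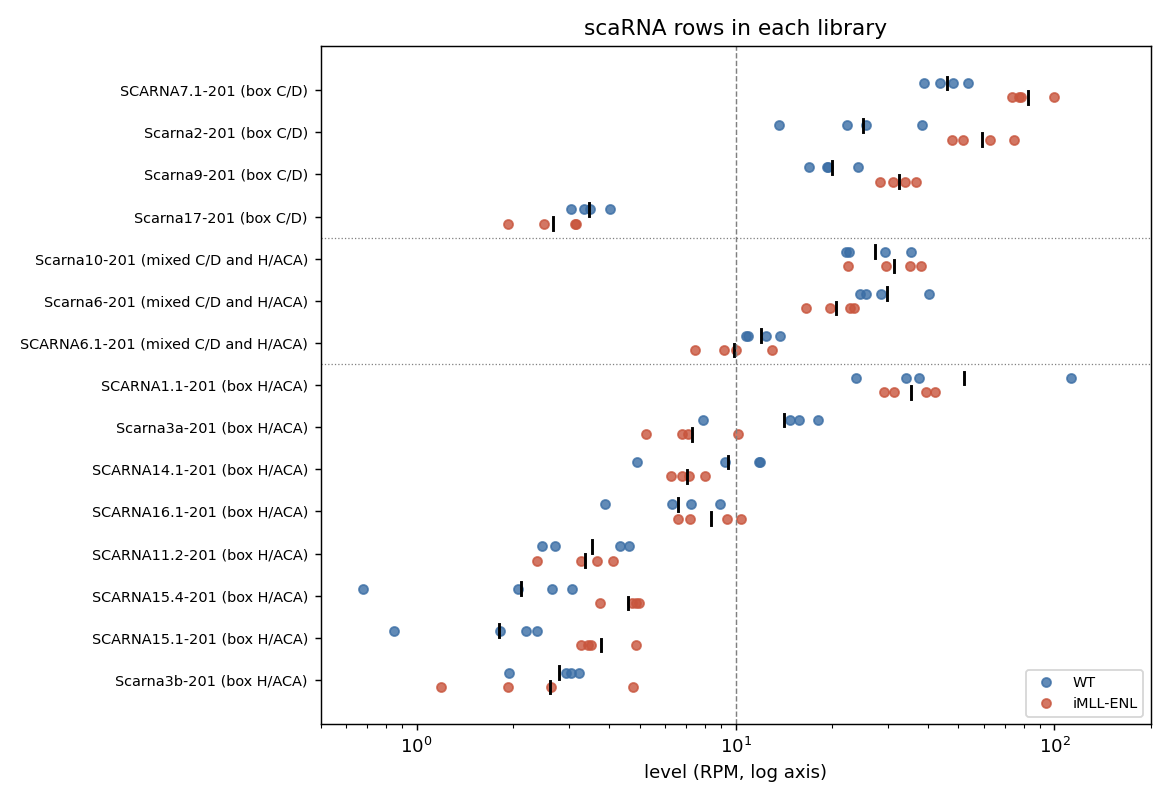
Level in RPM (log axis) of the 15 scaRNA rows in each WT (blue) and iMLL-ENL (red) library, ordered by box class, with group means as black bars and 10 RPM as a dashed line. The iMLL-ENL points of SCARNA7.1, Scarna2 and Scarna9 lie to the right of all WT points, and those of Scarna6 lie to the left.

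Among the mixed guides, Scarna6, the U88 scaRNA that acts on U5 snRNA, lay lower in iMLL-ENL. It sits in an intron of Atg16l1, an autophagy gene. Scarna6 was at 28.56, 40.52, 24.52 and 25.65 RPM in WT and at 19.83, 16.61, 23.54 and 22.92 RPM in iMLL-ENL. The groups did not overlap, but WT replicate 3 and iMLL-ENL replicate 3 lay next to each other. On the deposited scale it missed the threshold (-0.49 ± 0.20 SE, adjusted p = 0.091). It passed after median centring (-0.59, adjusted p = 0.031), quantile normalization (-0.71, 0.021) and TMM scaling (-0.76, 0.028, or -0.87, 0.016 with factors from all rows). It was not called in 16 of 20 alternatives. When scaled to the table's own total it was at -0.21 (adjusted p = 0.36), or -0.18 (0.42) when that total left out the 5 most abundant rows. Without WT replicate 2, its highest library, it was at -0.34 (adjusted p = 0.11).

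SCARNA6.1, a second row with the SCARNA6 name, was at 12.46, 13.77, 10.82 and 10.93 RPM in WT and at 9.19, 7.44, 10.01 and 13.03 RPM in iMLL-ENL. The groups overlapped and the row did not pass the test (-0.27 ± 0.23 SE, adjusted p = 0.40). It passed after quantile normalization (-0.79, adjusted p = 0.027), and its sign turned when libraries were scaled to a total without the 5 most abundant rows (0.02, 0.94). The ratio of Scarna6 to SCARNA6.1 within a library was 2.27 to 2.94 in WT and 1.76 to 2.35 in iMLL-ENL. The counting of reads that match more than 1 row is not stated in the sources used here.

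Scarna10, the U85 scaRNA, is a composite guide that directs both a methylation and a pseudouridylation in U5. It lies in an intron of Ncapd2, which encodes a condensin subunit, at chr6:125186359-125186683 on the minus strand. Scarna10 was at 22.12, 35.59, 22.66 and 29.43 RPM in WT and at 29.67, 22.54, 35.14 and 38.08 RPM in iMLL-ENL. The groups overlapped over most of their range. Its log2 fold change of 0.19 ± 0.22 (SE, adjusted p = 0.54) was -0.08 after TMM scaling (adjusted p = 0.85), and it passed the test only with sample quality weights (0.41, 0.044).

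Among the box H/ACA guides SCARNA1.1 had the most RPM, not corrected for length. SCARNA1, also known as ACA35, guides pseudouridylation of U2. SCARNA1.1 was at 34.15, 112.48, 23.84 and 37.70 RPM in WT and at 29.15, 39.46, 31.39 and 42.33 RPM in iMLL-ENL. WT replicate 2 was far above every other library, and the other 3 WT libraries lay among or below the iMLL-ENL ones. The row did not pass the test (-0.29 ± 0.42 SE, adjusted p = 0.64), and its sign turned without WT replicate 2 (0.16, 0.50).

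Scarna3a and Scarna3b are paralogous box H/ACA rows in introns of Cop1 and Dcaf5, both of which encode proteins of ubiquitin ligases. Scarna3a was at 14.84, 7.92, 18.09 and 15.84 RPM in WT and at 7.09, 6.79, 5.23 and 10.15 RPM in iMLL-ENL. WT replicate 2 lay within the iMLL-ENL range, and the other 3 WT libraries lay above it. Its difference on the deposited scale was not called (-0.84 ± 0.31 SE, adjusted p = 0.065). It was not called in 14 of 20 alternatives, with adjusted p up to 0.17 when 1 library was left out. When scaled to the table's own total it was at -0.59 (adjusted p = 0.16), or -0.56 (0.19) when that total left out the 5 most abundant rows. Without WT replicate 2 it was lower at -1.08 (adjusted p = 0.00093), where 56.6% of all tested rows passed. It also passed after TMM scaling (-1.10, adjusted p = 0.031, or -1.21, 0.021 with factors from all rows), after quantile normalization (-1.49, 0.0079), in limma without a trend or robust prior (-0.84, 0.048) and with sample quality weights (-1.15, 0.00034).

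Scarna3b was far lower, at 2.94, 1.95, 3.04 and 3.22 RPM in WT and 2.63, 1.19, 1.93 and 4.76 RPM in iMLL-ENL, with overlapping groups. Aligned end to end, the printed transcripts of this pair were identical at 120 of 140 positions (85.7%). Their longest shared run, 23 bases, spans bases 80 to 102 of Scarna3a, which includes the whole miR-1843b-5p arm. A read confined to that run could come from either gene, and RNA of the guide could not be told apart from miRNA of the same locus in these libraries made with a miRNA kit.

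The other 5 box H/ACA rows were low. SCARNA15.1 and SCARNA15.4, rows named for SCARNA15 (ACA45), a guide for U2, were both higher in every iMLL-ENL library than in any WT library. SCARNA15.1 was at 1.82, 2.21, 0.85 and 2.38 RPM in WT and at 3.28, 3.45, 3.53 and 4.88 RPM in iMLL-ENL. SCARNA15.4 was at 3.08, 2.08, 0.68 and 2.66 RPM in WT and at 4.99, 4.74, 3.75 and 4.88 RPM in iMLL-ENL. These 2 rows were below the filter, and in WT replicate 3 they rest on an estimated 5 and 4 reads. Fitted without the filter they were at 0.79 ± 0.23 (SE, adjusted p = 0.034) and 0.91 ± 0.28 (SE, adjusted p = 0.041). In that fit 29.3% of all 964 rows passed, 23.9% higher and 5.39% lower, and among the scaRNAs 5 of 15 were higher and 0 lower.

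SCARNA14.1, SCARNA16.1 and SCARNA11.2, named for the H/ACA guides U100, ACA47 and ACA57, had overlapping groups. Mean levels of SCARNA14.1 were 9.5 ± 3.3 RPM (WT) and 7.05 ± 0.74 RPM (iMLL-ENL, SD, n = 4). Those of SCARNA16.1 were 6.6 ± 2.1 and 8.4 ± 1.8 RPM, and those of SCARNA11.2 were 3.5 ± 1.1 and 3.37 ± 0.74 RPM. None of these 3 was tested on the deposited scale, and without the filter their adjusted p-values were 0.43, 0.38 and 0.91.

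Counted over all 15 rows, the groups did not overlap for 5 rows that were higher in iMLL-ENL and for 1 that was lower. Over all 964 rows the same held for 29.3% higher and 7.99% lower, so the scaRNA counts were close to the background. Under the 6 other scalings 3 of the 8 tested scaRNA rows changed sign (Scarna10, SCARNA6.1 and SCARNA1.1) and 5 kept theirs. Over all tested rows the median log2 fold change was 0.31 as deposited, and 0.04 once scaled by TMM. After TMM scaling 2 scaRNA rows were higher (SCARNA7.1 and Scarna2) and 2 lower (Scarna6 and Scarna3a), where 9.48% of all tested rows were higher and 16.6% lower. With TMM factors from all rows the same 4 rows were called, beside 5.53% of all tested rows higher and 20.4% lower. After quantile normalization 2 were higher and 3 lower (11.1% and 9.95% of all rows), and after median centring 3 and 1 (16.6% and 10.4%). The other alternatives named beside single rows passed different shares of all tested rows: 43.9% when scaled to the table's own total, 44.9% when that total left out the 5 most abundant rows, 27.6% without a trend or robust prior and 62.4% with sample quality weights. Without WT replicate 1 the share was 9.32%, and without iMLL-ENL replicate 3 it was 13.7%. In the authors' deposited table, 10 of the 15 rows had a log2 fold change below 0 and 5 above. Its FDR was under 0.05 for 1 row, Scarna3a (log2 fold change -1.37, FDR 0.010). In the authors' deposited table SCARNA7.1 was at 0.44 (FDR 0.42), Scarna2 at 0.85 (0.11) and Scarna9 at 0.30 (0.62). Those values come from the authors' own fit, not from limma on the deposited scale. With TMM factors from all rows, limma put the same rows at 0.43, 0.89 and 0.29.

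**Figure D3:**
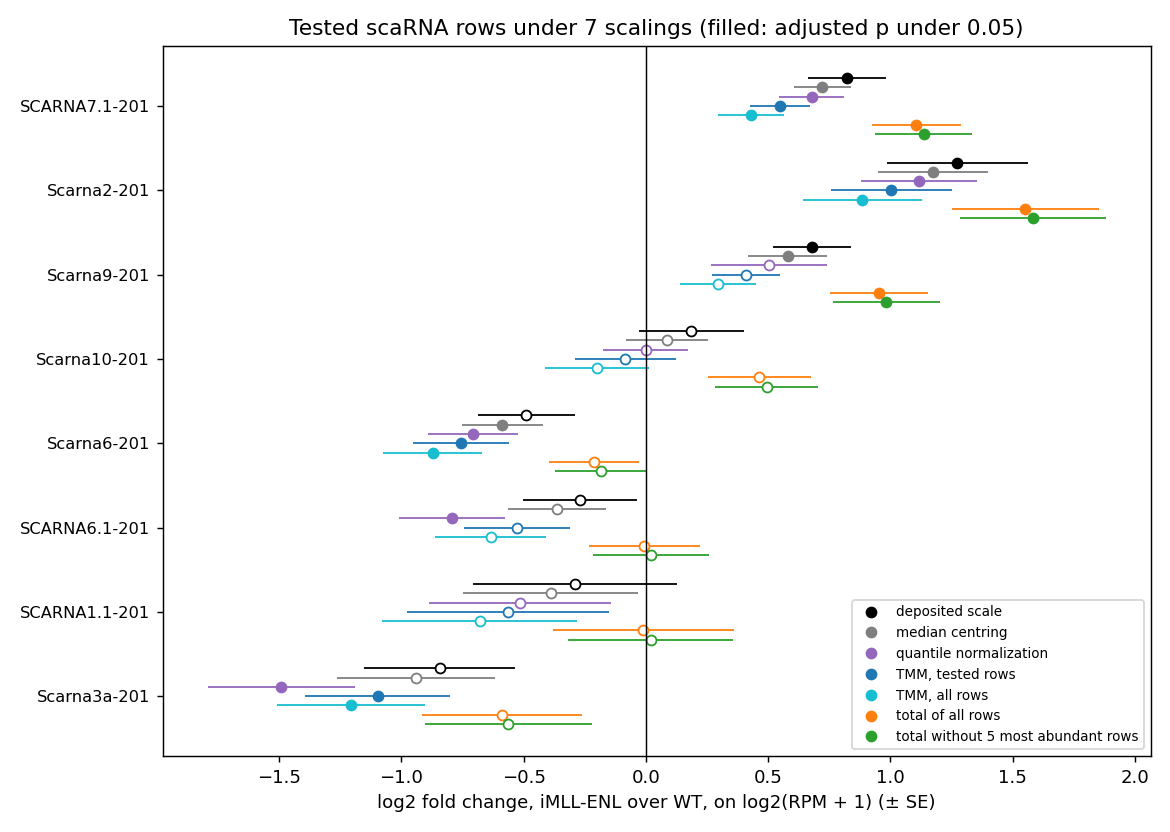
Log2 fold change (iMLL-ENL over WT, ± SE) of the 8 tested scaRNA rows on the deposited scale and under 6 other scalings, with filled points where the adjusted p was under 0.05. SCARNA7.1 and Scarna2 are filled under all 7, and Scarna10, SCARNA6.1 and SCARNA1.1 lie on both sides of 0.

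Summed over all 15 rows, the scaRNAs were at 231.40, 332.90, 191.08 and 270.35 RPM in WT replicates 1 to 4. The iMLL-ENL libraries were at 283.87, 288.76, 296.27 and 377.00 RPM. The means were 256 ± 60 and 311 ± 44 RPM (SD, n = 4), a ratio of 1.21, and the groups overlapped because of WT replicate 2. In that library SCARNA1.1 alone made up 33.8% of the sum, against 10.3% to 14.8% in the other 7 libraries. With SCARNA1.1 left out, a choice made after its value in WT replicate 2 was seen, the groups did not overlap. WT then lay at 167 to 233 RPM and iMLL-ENL at 249 to 335 RPM. On the same scale 29.3% of all 964 single rows were higher without overlap. After TMM scaling the log2 ratio of the summed means was -0.005, against 0.28 on the deposited scale. Because the rows were chosen with earlier results known, the sum has no test.

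The make-up of the sum does not depend on any scaling by 1 factor per library, though quantile normalization would change it. Box C/D rows took 38.4%, 28.5%, 39.3% and 44.3% of it in WT and 56.2%, 57.7%, 56.2% and 56.8% in iMLL-ENL. The iMLL-ENL libraries lay close together and above every WT library. The box H/ACA share was 30.4% to 44.5% in WT and 20.6% to 26.1% in iMLL-ENL, and the mixed share 24.4% to 30.4% and 16.13% to 23.2%. Shares of 1 sum are tied, so a larger box C/D share lowers the others. The mean share of SCARNA7.1 was 18.4% in WT and 26.5% in iMLL-ENL, and that of Scarna2 was 9.7% and 18.9%. Without WT replicate 2 the mean box C/D share of WT was 40.7% ± 3.2 (SD) in place of 37.6% ± 6.6. In RPM the box C/D rows summed to 94.6 ± 18.6 in WT and 177 ± 25 in iMLL-ENL. Over the same groups the box H/ACA rows summed to 92.6 ± 38.8 and 72.7 ± 12.2 RPM, and to 74.0 ± 14.11 RPM in WT without replicate 2. The classes were assigned with results known, so these shares are a description.

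Ratios within a library are free of such factors as well. Scarna2 over Scarna6 was 0.784, 0.632, 0.559 and 1.497 in WT and 2.41, 3.77, 2.19 and 3.25 in iMLL-ENL. The lowest iMLL-ENL ratio was above the highest of WT. SCARNA7.1 over Scarna6 was 1.19 to 2.09 in WT and 3.33 to 4.44 in iMLL-ENL. Scarna9 over Scarna10, a box C/D and a mixed guide, both in introns, was 0.478 to 0.873 in WT and 0.964 to 1.26 in iMLL-ENL. These pairs were chosen after their values were seen.

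**Figure D4:**
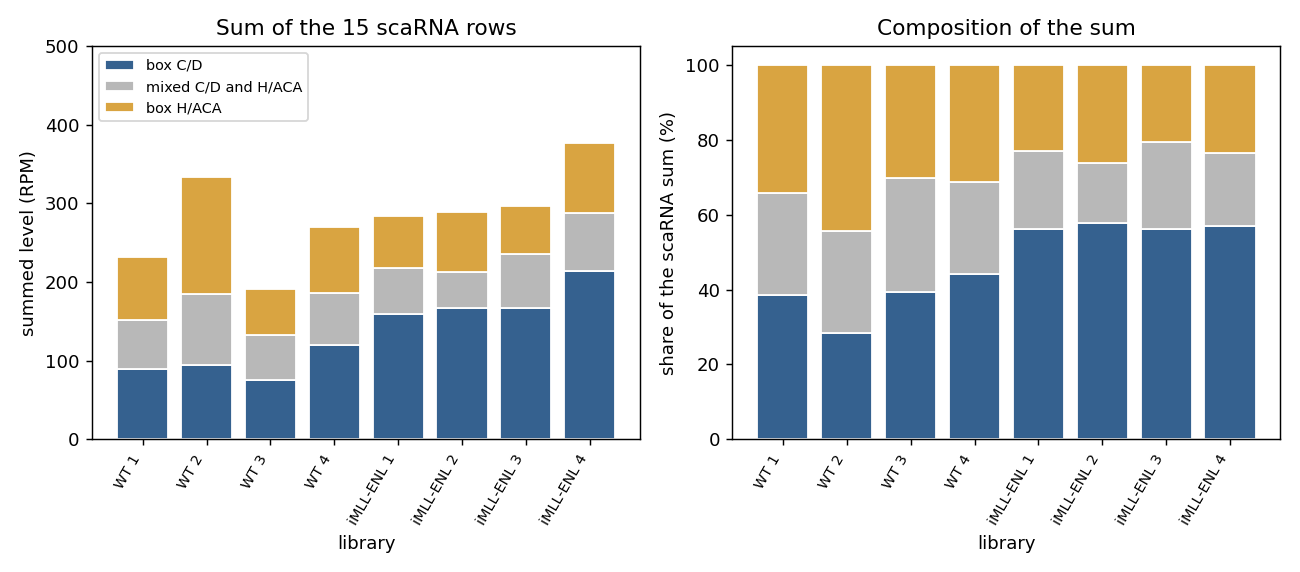
Left, summed level in RPM of the 15 scaRNA rows in each library, stacked by box class; right, the same as a share of each library's sum in %. The box C/D share is 28.5% to 44.3% in WT and 56.2% to 57.7% in iMLL-ENL, and the high total of WT replicate 2 comes with a box H/ACA share of 44.5%.

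Levels of different rows were also set side by side per annotated length, which is known for the 7 rows with a GENCODE match. Per 100 annotated bases, Scarna9 was highest in both groups, at 28.6 ± 4.3 RPM for WT and 46.5 ± 5.2 RPM for iMLL-ENL (SD, n = 4). Scarna6 came next in WT (11.3 ± 2.8), then Scarna3a (10.1 ± 3.1), Scarna10 (8.4 ± 2.0) and Scarna2 (6.0 ± 2.5). Each of these differed from the next by less than the larger SD of the pair. In iMLL-ENL the second place went to Scarna2 (14.3 ± 2.9), ahead of Scarna10 (9.6 ± 2.1), Scarna6 (7.8 ± 1.2) and Scarna3a (5.2 ± 1.5). Scarna17 and Scarna3b were lowest in both groups, at 1.9 to 4.4 RPM per 100 bases. Reads of a small RNA library can cover only part of a longer RNA, and read lengths were not analysed here. These values are therefore not levels per molecule, and their order depends on the annotated lengths. Scarna2 was divided by 414 bases, where RefSeq's entry has 61.

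The snRNAs that scaRNAs modify, with their partners, gave 289 rows named U1, U2, U4, U5, U6, U11, U12, U4atac or U6atac. Of the 146 tested, 25 rose and 0 fell, 17.1% beside the 20.4% of all tested rows that were higher. U2 had 12 of 19 tested rows higher, and U1, the target of SCARNA7.1 and SCARNA16.1, had 4 of 27. Among guides for U2, means were higher in iMLL-ENL for Scarna2, Scarna9, SCARNA15.1 and SCARNA15.4, and lower for SCARNA1.1 and SCARNA14.1. U5, the target of the mixed guides and of SCARNA11.2, had 1 of 7, U4 had 2 of 2, U12 1 of 2 and U6 5 of 87. The single tested rows of U11 and U6atac did not pass. At an unadjusted limma p under 0.05, 38 were higher and 0 lower, beside 195 and 83 of all 633 tested rows. After TMM scaling 13 of the 146 were higher and 0 lower (8.9% called), among them 6 of U2, 4 of U1 and 0 of U5. In that fit 9.48% of all tested rows were higher and 16.6% lower. The snRNA count rests on single libraries, and so does the share of all tested rows that passed, given in brackets. It was 8 without WT replicate 1 (9.32%) and 113 without WT replicate 2 (56.6%). Without iMLL-ENL replicate 1 it was 15 (14.2%), and without iMLL-ENL replicate 3 it was 14 (13.7%). Many of the snRNA rows are near-identical copies, so their counts are not independent, and no relation between guide and target was tested.

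The guide RNAs most like the scaRNAs are the snoRNAs, which act mainly on ribosomal RNA. Of 41 tested rows named Snora, box H/ACA guides, 8 were higher (19.5%, beside 20.4% of all tested rows) and 0 lower. Their median log2 fold change was 0.53. At an unadjusted limma p under 0.05 they split 14 and 0, beside 195 and 83 of all 633 tested rows. Of 128 tested rows named Snord, box C/D guides, 25 were higher and 1 lower (20.3% called, beside 28.9% of all tested rows), with a median of 0.27. After TMM scaling the Snora split was 3 and 0 and the Snord split 14 and 17. In that fit 9.48% of all tested rows were higher and 16.6% lower. Leaving out WT replicate 1 gave 0 Snora and 9 Snord calls, where 9.32% of all tested rows passed. At an unadjusted limma p under 0.05 that fit had 11 Snora rows higher, beside 166 of all 633 tested rows. Leaving out WT replicate 2 gave 20 Snora and 43 Snord calls, where 56.6% of all tested rows passed. Without WT replicate 3, or without any 1 of the iMLL-ENL libraries, there were 1 to 3 Snora and 13 to 17 Snord calls, where 13.7% to 18.5% of all tested rows passed. Without WT replicate 4 there were 12 and 40, where 33% of all tested rows passed. Among the scaRNAs the median of the 8 tested rows was -0.04, beside 0.31 over all 633 tested rows, and the difference between these groups of guides was not tested. In bulk RNA a change in the amount of RNA per cell and a change in which cells make up the culture cannot be told apart.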

How the data were processed

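Deposited by the authors was 1 table: each row has 8 library values, headed TPM, and the authors' own log2 fold change, mean log2 CPM, p-value and FDR per row, per the file headers. The deposited values are treated as RPM because they are whole multiples of 1 step per library, as described above. Per the labels' protocols, libraries were made with the QIAseq miRNA kit, and per the submitters' processing notes the build was GRCm38. Aligner, counting program, annotation, use of strand, treatment of multiply mapped reads and molecular indexes are not stated in the sources used here.

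The test was limma 3.58.1 (statmod 1.5.0, R 4.3.3) on log2(RPM + 1), its trend and robust options on, 4 WT against 4 iMLL-ENL, two-sided, adjusted over the 633 rows with at least 4 libraries at 10 RPM. Fold changes on this scale understate those of low rows. Whole reads were not taken as recovered, so no count model was run. The fit was tested on simulated data. Sequences came from GENCODE M21 and RefSeq, aligned with Biopython 1.88 in Python 3.11.15. Alternatives were other pseudocounts, filters, scalings, prior and weights, a replicate block and each library left out. Every scaRNA row is named; values per library are given for rows that passed and for the 5 highest by mean, and others where a result turns on them. The rows, lists and classes were chosen with earlier results of these data known.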

Additional observations from a re-analysis of the deposited data

Results flagged for a closer look

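In groups of 4 libraries, the gap between the most distant library and its nearest neighbour was compared with the group's range and held against Dixon's 95% critical value, for the 15 rows and their sum in both groups. Of 32 groups 3 passed, and chance alone passes about 1 in 20. SCARNA1.1 in WT replicate 2 was at 112.48 RPM, against 23.84 to 37.70 RPM in the other WT libraries. SCARNA15.1 in iMLL-ENL replicate 4 was at 4.88 RPM, against 3.28 to 3.53 RPM in the other iMLL-ENL libraries. The sum of the scaRNA rows in iMLL-ENL replicate 4 was 377.00 RPM, against 283.87 to 296.27 RPM. The causes were not tested.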

How the results depend on the processing

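On the deposited scale 3 of 8 tested scaRNA rows, 25 of 146 snRNA rows, 8 of 41 Snora rows and 26 of 128 Snord rows (25 higher, 1 lower) passed. SCARNA7.1 passed in all 21 alternatives and Scarna2 in 19 of 20. The scaRNA count was 5 without the filter, 1 with a 50 RPM filter (only SCARNA7.1 tested), 5 after quantile normalization and 5 with sample quality weights. The snRNA, Snora and Snord counts were 53, 22 and 53 when scaled to the table's own total (43.9% of all tested rows passed). They were 54, 25 and 55 when that total left out the 5 most abundant rows (44.9%). With sample quality weights (62.4%) they were 111, 21 and 55. SnRNA rows gave 57 without the filter, 13 with TMM scaling and 11 with TMM factors from all rows. Snora rows gave 16 without the filter, 2 at 50 RPM, 3 with TMM scaling, 1 with TMM factors from all rows and 3 after quantile normalization. Snord rows split into 14 higher and 17 lower with TMM scaling, and 6 and 20 with TMM factors from all rows. The split was 28 and 7 after median centring and 21 and 5 after quantile normalization. Of all tested rows 29.3% passed without the filter and 42.7% at 50 RPM. With TMM scaling 26.1% passed, and with TMM factors from all rows 25.9%. After median centring the share was 27%, and after quantile normalization 21%. Leaving out 1 library at a time gave 1 to 4 scaRNA, 8 to 113 snRNA, 0 to 20 Snora and 9 to 43 Snord calls. The low ends came without WT replicate 1, where 9.32% of all tested rows passed. The high ends came without WT replicate 2, where 56.6% passed. The summed scaRNA log2 ratio was 0.28, -0.0046 with TMM scaling, -0.12 with TMM factors from all rows, 0.57 scaled to the table's own total and 0.61 when that total left out the 5 most abundant rows, and 0.16 to 0.43 with 1 library left out. Signs turned for Scarna10 (-0.085 with TMM scaling, -0.20 with TMM factors from all rows, -0.00017 after quantile normalization), for SCARNA6.1 (0.022) and SCARNA1.1 (0.021) with the abundant rows out of the total, and for SCARNA1.1 by library left out (-0.57 to 0.16). The median of all tested rows ran from -0.08 (TMM factors from all rows) to 0.62 (abundant rows out of the total). TMM factors from all rows, and the sum without SCARNA1.1, were chosen after seeing the data. The causes were not tested.

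The labels do not say what a replicate number shares. Correlations of same-numbered deviations were 0.39, 0.29, -0.13 and 0.42, so not every pair was above 0.1 and no pairing was assumed, although 3 of 4 WT libraries correlated best with their own number. With the replicate block 3 scaRNA, 30 snRNA, 13 Snora and 38 Snord rows passed, and 30.5% of all tested rows (28.9% without it). Members at 1 to 5 RPM rest on few reads, and small differences there were not detectable at this depth.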
